A study of Pimephales promelas with 10 samples.

Results

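Adult male fathead minnows, Pimephales promelas, were exposed to the explosive formulation IMX-101, and testis RNA was read on arrays. Of 49849 probes, 40572 were well above background on enough exposed arrays to be considered. Among the 40572, 141 had a higher value in each of 5 exposed tanks than in any of 5 control tanks. Of the 141, 91 had a signal significantly above background on all 5 exposed arrays. The others had no measured signal on the array of exposed replicate 5, where a stand-in value took its place. The 141 probes were chosen on the signal itself. A probe was taken if it was well above background, by the scanner software's flag, on 3 or more of the exposed arrays, and if its lowest exposed level lay above its highest control level. The separation of the groups is therefore how the probes were found and not a result. Nothing is read from any test of exposed against control for them. The control fish were kept at 0 mg/L and the exposed fish at 12.6 mg/L of IMX-101, both for 21 days at 23 °C, with 2 fish in each tank. One array holds the testis RNA of 1 tank, from both fish where both extracts passed the RNA quality limits and otherwise from a single fish. The labels do not say which arrays hold RNA of 1 fish. The stated concentration sums measured nitrotriazolone and nitroguanidine and the nominal, not the measured, dinitroanisole, since little dinitroanisole was found in the water, per the study's design text. Other concentrations that the text lists were not analysed here.

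IMX-101 is a melt-cast insensitive munition that contains dinitroanisole, nitrotriazolone and nitroguanidine. Nitrotriazolone is known in rats for damage to the seminiferous epithelium, and dinitroanisole is converted in mammals to dinitrophenol, which uncouples mitochondrial respiration from ATP synthesis. A fish testis is made of germ cells at successive stages of spermatogenesis, enclosed in cysts by Sertoli cells, with steroid-producing Leydig cells between the tubules. An array of whole testis RNA reads the sum over these cells. A change in the number of cells of a type and a change in RNA per cell therefore cannot be told apart.

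The files pair none of the probe names with a gene, and 0 of the names occurred in the RefSeq gene table for this species, so the probes are given by name, with no gene, function or sequence. For the same reason neither the testis origin of the RNA nor other cell types could be checked by marker genes. Levels are log2 signals relative to the 75th percentile of the array, so a level of 0 is that of a fairly bright spot. Between 81.4% and 86.5% of gene spots were well above background on 9 arrays, and 40.3% on the array of exposed replicate 5. The arrays lay on 3 slides. Slide 1 held exposed replicate 1 with control replicates 1 to 3, slide 2 held exposed replicates 2 and 3 with control replicates 4 and 5, and slide 3 held exposed replicates 4 and 5 alone.

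The 141 probes were 0.348% of the 40572 that were well above background on 3 or more exposed arrays. In the same 40572 probes, 950 (2.34%) had all exposed levels below all control levels. Most of the 141 were dim. Their median control level was -4.38, against -1.94 over the 40572 probes, and 25% of them lay below -5.35. The rule used the control levels, so this dimness is a description and not a result. Probes with control levels below the stand-ins of exposed replicate 5 pass on that array with no signal, as given below. The median difference between exposed and control means was 1.17 log2 units, a 2.25-fold higher signal. A stand-in on 1 or more control arrays, which makes the difference inexact, was present for 11 of the 141 probes. Over the other 130 the differences ran from 0.15 to 3.85, with a median of 1.10. Some of these 130 carried a stand-in on the array of exposed replicate 5, described below, which makes their differences inexact too. Over all 43080 probes that could be compared the median difference was -0.03. The difference was at least 1 log2 unit for 82 of the 141 probes, at least 2 for 33 and at least 3 for 9, and 5 of those 9 had a stand-in on a control array. Over the 40572 probes the numbers were 1686, 386 and 77, and the differences of the 141 are fixed to be positive by the rule. The space between the lowest exposed and the highest control level was small for most of them, with a median of 0.14 log2 units, and 75% of the gaps were below 0.29. In the limma fit across all 43080 probes, which uses the same contrast as the rule, 3 probes (0.00696%) were called higher at an adjusted p under 0.05. They were SINGLET_7367, CONTIG5561 and SINGLET_45763, and nothing is read from these calls.

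By what was measured in exposed replicate 5, the 141 probes fell into 3 kinds. Spots that are not significantly above background carry a stand-in in place of a signal. In these files it was, for nearly all such spots, 0.992 to 0.998 times the spot's own error estimate. On the array of exposed replicate 5 the stand-ins lay at log2 levels of -4.28 to -3.81. On the other 9 arrays no stand-in exceeded -6.45. Among the 141 probes, 50 (35.5%) had such a stand-in on the array of exposed replicate 5, and none had one on any other exposed array. Of the 50, 34 had a background-subtracted signal below 0 on that array. Over the 40572 probes the share with a stand-in there was 23.9%. For these 50 probes the tank of exposed replicate 5 has no measured level, and the statement that the signal was higher than in controls rests on the other 4 exposed tanks. The stand-in was the lowest exposed value for 6 of them, SINGLET_45763, SINGLET_42780, SINGLET_649, UF_Ppr_AF_112727, CONTIG9147 and SINGLET_42938.

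A probe whose control levels all lie below the lowest stand-in of that array would pass there even with no signal. There were 2324 such probes among the 40572, of which 60 (2.58%) were among the 141, and of the other 38248 probes 81 (0.212%) were. The 91 probes with a signal significantly above background on all 5 exposed arrays were 0.296% of 30750 such probes. Of these, 47 had the well-above-background flag on all 10 arrays, 0.244% of 19282 such probes, and 404 of the 19282 (2.1%) had all exposed levels below all control levels. The 44 in between were all short of the well-above-background flag on the array of exposed replicate 5. The median difference was 0.68 log2 units for the 47, 1.38 for the 44 and 1.44 for the 50. Without the array of exposed replicate 5 the median over the 141 probes was 1.13, and the part of that array's low detection in the result was not tested further.

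**Figure D1:**
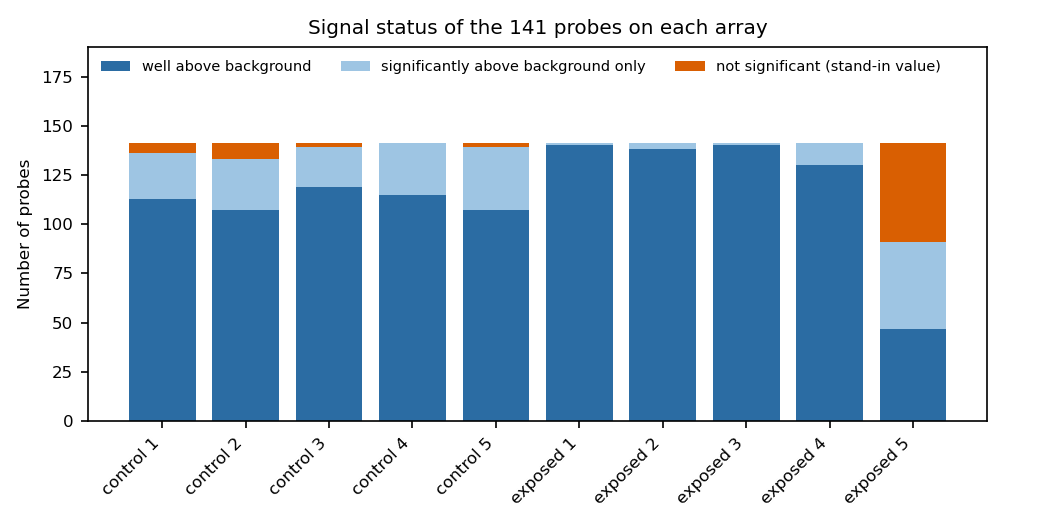
Number of the 141 probes (vertical axis) by signal status on each of the 10 arrays. On the array of exposed replicate 5, 47 probes were well above background and 50 carried a stand-in value, while no other exposed array carried a stand-in for any of them.

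Among the 47 probes measured well above background on all arrays, the widest separation was that of SINGLET_4840. Its log2 levels were 1.21, 1.41, 2.18, 1.62 and 0.96 in exposed replicates 1 to 5 and 0.31, 0.56, 0.13, 0.41 and 0.54 in control replicates 1 to 5. Exposed replicate 3 was the highest tank and exposed replicate 5 the lowest of the exposed ones. The difference of means was 1.08 log2 units with SE 0.23 from limma. UF_Ppr_AF_109534 had levels of 0.18, -0.36, 0.46, -0.88 and -0.77 in exposed and -1.53, -1.52, -1.29, -1.78 and -1.12 in control replicates. Its difference was 1.17 (SE 0.28), and the 2 tanks of slide 3 were the lowest exposed ones. SINGLET_2319 had nearly equal levels in the exposed tanks, -1.44, -1.13, -1.50, -1.32 and -1.26, against -2.22, -2.26, -1.71, -1.77 and -2.08 in the control tanks. The difference was 0.68 (SE 0.16), with an SD of 0.15 over exposed and 0.25 over control tanks.

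UF_Ppr_AF_108611 had the largest difference among the 12 probes of this kind with the widest separation. Its levels were -0.32, 0.32, 0.19, -0.47 and -1.59 in exposed and -3.59, -3.98, -2.86, -1.88 and -3.35 in control replicates, a difference of 2.76 (SE 0.45). Exposed replicate 5 and control replicate 4 came closest to the other group. SINGLET_5056 was dim and tightly grouped in control testes, at -4.81, -4.54, -4.66, -4.65 and -4.64, and spread widely in exposed testes, at -4.20, -2.80, -3.09, -1.22 and -1.57. Its difference of 2.09 (SE 0.49) came with an exposed SD of 1.20 and a control SD of 0.10, and the 2 tanks of slide 3 were the highest. The same order held for SINGLET_37850, whose levels were -3.10, -2.51, -2.76, -0.37 and -1.35 in exposed and -3.68, -4.63, -4.92, -3.35 and -3.52 in control replicates. The other 6 of the 12, SINGLET_3486, UF_Ppr_AF_119067, UF_Ppr_AF_115438, SINGLET_11447, UF_Ppr_AF_108090 and SINGLET_49007, had differences of 0.44 to 2.21.

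The 3 of the 141 probes with the highest signal in control testes had small differences. UF_Ppr_AF_103665 had log2 levels of 6.36, 6.28, 6.68, 6.51 and 6.42 in exposed and 5.67, 6.01, 6.09, 5.47 and 6.18 in control replicates, a difference of 0.57 (SE 0.18). CONTIG5551 differed by 0.22 (SE 0.13), with exposed levels of 4.17 to 4.50 and control levels of 3.94 to 4.16. UF_Ppr_AF_105742 differed by 0.26 (SE 0.13), with exposed levels of 3.97 to 4.16 and control levels of 3.60 to 3.93. The gap between the groups was 0.01 log2 units for CONTIG5551 and 0.04 for UF_Ppr_AF_105742. Neither probe met the rule with each array centred on its median or with quantile normalization. UF_Ppr_AF_105742 also missed it with normexp background correction, and UF_Ppr_AF_103665 missed it with median centring.

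**Figure D2:**
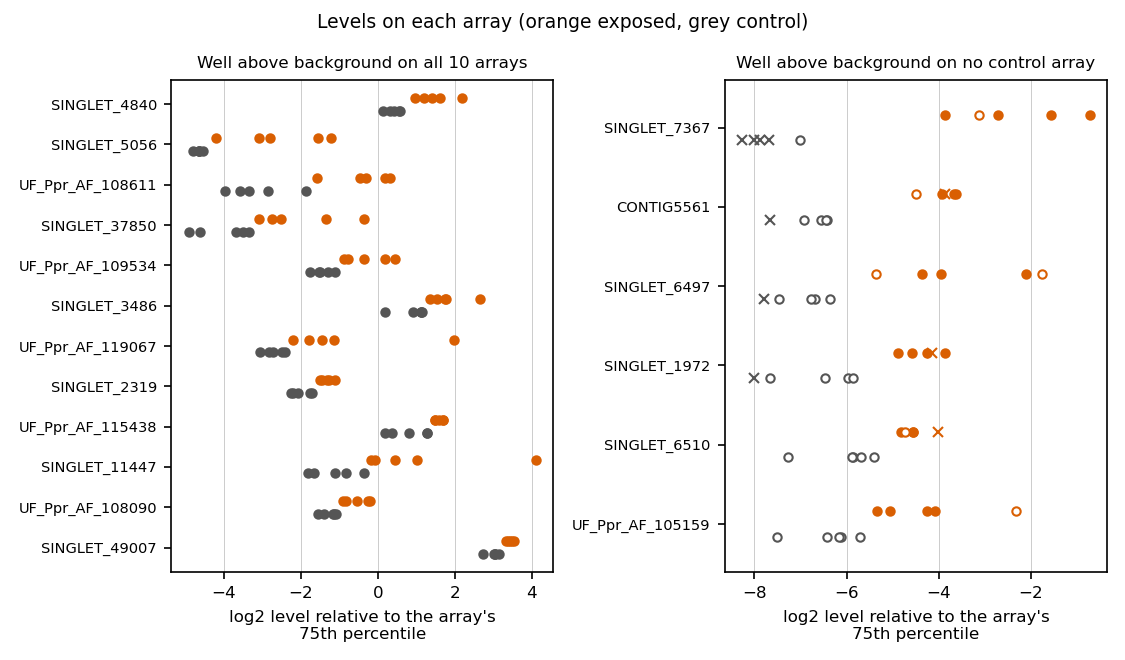
Log2 level relative to the array's 75th percentile (horizontal axis) of 12 probes with the well-above-background flag on each array (left) and 6 probes with that flag on none of the control arrays (right). Filled points are well above background, open points significantly above it only, and crosses are stand-in values; the stand-ins of exposed replicate 5 lie among the measured exposed levels of CONTIG5561 and SINGLET_1972 and above those of SINGLET_6510.

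At the dim end, 11 of the 141 probes lacked the well-above-background flag on every control array, as did 33 of the 40572. The detection filter used the exposed arrays alone, so such probes entered only through the group where they are high. Their number and the bounds below are therefore a description and not a result. SINGLET_7367 had the widest separation of all, with exposed levels of -1.57, -0.73, -3.87, -2.72 and -3.12 and control levels of -8.01, -7.89, -8.26, -7.01 and -7.69. In 4 of the 5 control tanks its value was a stand-in, so those tanks have no measured level. Against the higher of its own value and the lowest well measured spot of each control array, the exposed mean was at least 11.0-fold higher, or at least 12.5-fold without exposed replicate 5. The bounds in this paragraph use the scanner software's background correction. They use the mean over all 5 exposed arrays, except where exposed replicate 5 is said to be left out. For a probe with a stand-in on that array, the mean over 5 holds an unmeasured value. For such a probe only the bound without that array is a lower limit. CONTIG5561 had exposed levels of -3.67, -3.93, -3.62, -4.49 and -3.86 and control levels of -6.43, -7.67, -6.92, -6.56 and -6.44. The same calculation over all 5 exposed arrays gave 3.87-fold, which is not a lower limit. Its value in exposed replicate 5 was a stand-in, with a background-subtracted signal of -60.9 intensity units, and without that array the bound was at least 3.84-fold. CONTIG5561 did not meet the rule with normexp background correction or with a common floor for all levels. SINGLET_6497 had levels of -4.37, -3.95, -2.10, -5.36 and -1.77 in exposed testes, and was at least 5.11-fold higher, or at least 3.78-fold without exposed replicate 5. It had a measured signal on all exposed arrays. Over all 5 exposed arrays the remaining 8 gave 1.56-fold to 3.62-fold. For 7 of them this is not a lower limit, since they carried a stand-in on the array of exposed replicate 5. Without that array the 8 bounds lay between at least 1.25-fold and at least 3.52-fold. The lowest was that of UF_Ppr_AF_113849, for which the stand-in was the highest exposed value.

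SINGLET_45763, well above background on a single control array, had exposed levels of -3.61, -3.36, -2.45, -3.31 and -3.93 and control levels of -5.39, -5.81, -6.16, -5.69 and -6.19. Its lowest exposed value, that of replicate 5, was a stand-in. SINGLET_12139 had exposed levels of -2.48, -1.65, -1.16, -4.09 and -3.97 and control levels of -6.88, -7.60, -8.12, -5.51 and -6.98, again with a stand-in for exposed replicate 5, where its background-subtracted signal was -37.4. The 2 tanks of slide 3 were the lowest exposed ones, with the last of them unmeasured. SINGLET_7780 had a narrow exposed range, at -4.11, -3.80, -3.27, -4.21 and -3.91 in exposed testes, with the value of replicate 5 a stand-in, and -7.17, -6.42, -5.66, -6.65 and -5.60 in control testes.

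The rule has its threshold where the lowest exposed level equals the highest control level. Just inside were SINGLET_29618, UF_Ppr_AF_116329 and UF_Ppr_AF_117220, with differences of means of 0.84, 0.15 and 1.00 log2 units. UF_Ppr_AF_116329 had the smallest difference of the 141, at 0.87, 0.92, 0.85, 0.88 and 0.84 in exposed and 0.80, 0.84, 0.75, 0.78 and 0.47 in control replicates. Just outside were SINGLET_30495, SINGLET_14889 and CONTIG2297, with differences of 0.39, 0.67 and 0.69. CONTIG2297 missed on exposed replicate 5 alone, at -0.31, while its other exposed levels were 0.75, 0.11, 1.11 and -0.04 and its highest control level was -0.30. Exposed replicate 1 kept out the most probes: 528 of the 40572 lay above all controls on the other 4 exposed arrays and not on that one. The corresponding numbers were 72 for exposed replicate 2, 208 for replicate 3, 90 for replicate 4 and 88 for replicate 5.

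The size of the shift differed between exposed tanks. For the 47 well measured probes the median level above the control mean was 0.47, 0.60, 0.51, 0.62 and 0.84 log2 units in exposed replicates 1 to 5. For the 44 probes of the second kind it was 1.03, 1.06, 1.14, 1.52 and 1.59. All 44 lacked the well-above-background flag on the array of exposed replicate 5. The lowest spot with that flag lay at -1.93 there and at -4.76 or lower on the other arrays. Shifts and shares over probes measured like the 44 were not computed. Exposed replicate 5 was the highest exposed tank for 17 of the 47 probes and for 15 of the 44, and exposed replicate 3 for 13 and 12. Exposed replicate 1 was the lowest for 16 of the 47 and 11 of the 44. Over the 19282 probes measured as well as the 47, exposed replicate 5 was the highest for 30.2%, beside 36.2% of the 47, exposed replicate 3 for 16.7%, beside 27.7%, and exposed replicate 1 the lowest for 24.6%, beside 34.0%. The median level above the control mean over the 19282 probes was 0.06 in exposed replicate 5 and below 0 in the other 4.

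**Figure D3:**
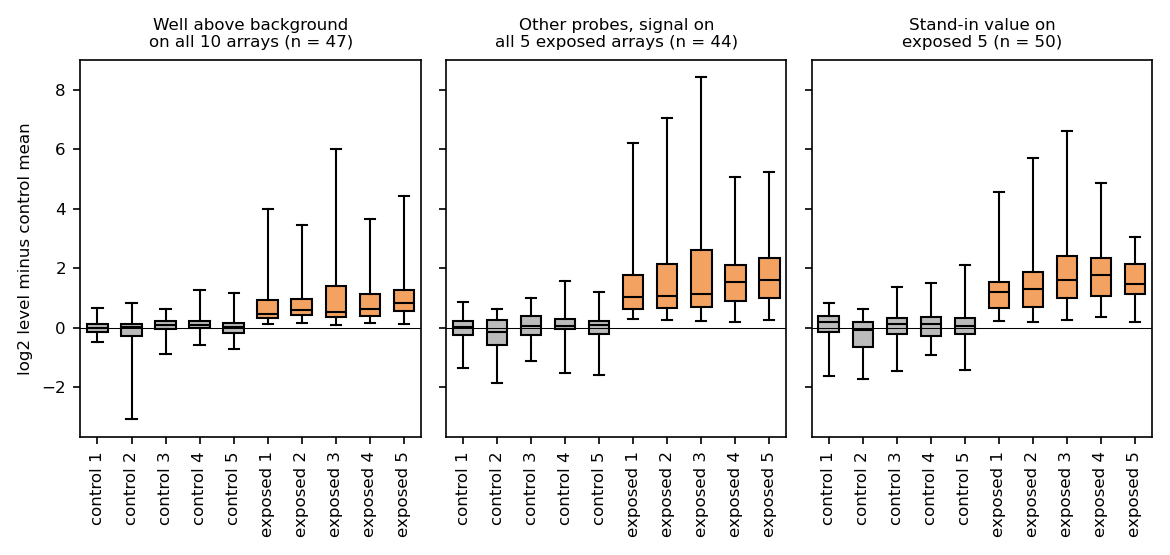
Log2 level minus the control mean (vertical axis) on each array for the 3 kinds of probe; boxes span the quartiles, lines mark the medians and whiskers the lowest and highest probe. The medians of the 47 well measured probes lie between 0.47 and 0.84 on the exposed arrays, and single probes reach much higher on the array of exposed replicate 3.

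For the 47 well measured probes the spread between tanks was close to that of other probes measured equally well. The median SD of the 47 probes was 0.38 log2 units over exposed and 0.25 over control arrays, beside 0.35 and 0.26 over the 19282 probes measured equally well. The exposed SD was the larger for 31 of the 47 (66.0%) and for 68.7% of the 19282. Over all probes that met the rule the spread was wider, with median SDs of 0.55 over exposed and 0.37 over control arrays. Over all probes that passed the detection filter the medians were 0.48 and 0.32. The rule keeps out probes whose groups overlap, so it also acts on the spread, and these values are a description. At the extremes, CONTIG432 and CONTIG434 had exposed SDs of 2.98 and 2.88, and UF_Ppr_AF_116329 and UF_Ppr_AF_113751 of 0.03 and 0.06. UF_Ppr_AF_113751 had levels of -0.10, -0.01, -0.06, 0.06 and -0.08 in exposed and -0.40, -0.34, -0.30, -0.34 and -0.22 in control replicates, so that a difference of 0.28 (SE 0.12) separated groups that were each tight.

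For 15 of the 141 probes a single exposed tank stood at least 2 log2 units above every other exposed tank, and this was exposed replicate 3 for 11 of them. Over the 40572 probes 724 (1.78%) had such a tank, and exposed replicate 3 was again the most frequent, with 336. CONTIG434 had levels of 1.01, -0.71, 4.69, -2.30 and -2.13 in exposed and -4.65, -4.31, -2.95, -3.59 and -3.19 in control replicates. Without exposed replicate 3 its difference fell from 3.85 to 2.71 log2 units. SINGLET_3732 reached 3.13 in exposed replicate 3 and lay between -1.90 and -0.85 in the other exposed tanks, above control levels of -4.09 to -3.13, and its difference was 3.19 with that tank and 2.27 without it. UF_Ppr_AF_101612 had levels of 1.73, 0.01, 3.74 and -1.05 in exposed replicates 1 to 4. Its level in exposed replicate 5 was close to that in exposed replicate 4. Its control levels were -1.61, -5.35, -1.80, -1.46 and -1.09 in replicates 1 to 5. The gap between the groups was thus 0.04 log2 units, and the low level of control replicate 2 enlarged the difference of 2.95. The other 4 probes had their peak in exposed replicate 4 (UF_Ppr_AF_116413 and SINGLET_47066) or exposed replicate 5 (SINGLET_30195 and UF_Ppr_AF_117333). Without the peak tank the differences of the 15 probes ran from 0.63 to 2.84, all still positive, as the way they were chosen requires.

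Some of the 141 probes varied together from tank to tank. After the group means were removed, 13 of the 9870 pairs had a Pearson correlation of at least 0.95 over the 10 arrays. They joined 23 probes into 10 sets, 9 of them pairs. The points of such a correlation share arrays, labelling and scaling, and a large number of pairs was searched, so the values are a description. The median over all pairs was 0.02. SINGLET_11447 and SINGLET_1253 correlated at 0.999. SINGLET_11447 had levels of 1.00, 0.43, 4.11, -0.09 and -0.18 in exposed and -1.11, -0.36, -1.82, -0.84 and -1.65 in control replicates, and SINGLET_1253 had the same order of tanks in both groups. UF_Ppr_AF_109734, which missed the rule by 0.04 log2 units, followed both probes (correlation 0.998 or more) and differed by 2.17.

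SINGLET_29859 and UF_Ppr_AF_108611 (correlation 0.992) followed each other in both groups. The former was at -0.29, 0.41, 0.30, -0.49 and -1.62 in exposed and -3.71, -3.95, -2.91, -2.18 and -3.49 in control replicates. UF_Ppr_AF_119067 and CONTIG6213 (0.990) both peaked in exposed replicate 3, at 1.97 and 2.03, with the other exposed levels between -2.29 and -1.12. CONTIG434 and CONTIG432 (0.983) shared the same peak at 4.69 and 4.82. UF_Ppr_AF_115438 and SINGLET_45979 (0.998) differed from these in shape, since their exposed levels were close together, 1.47 to 1.69 and 1.55 to 1.75, while the control levels ran from 0.20 to 1.27 and 0.59 to 1.46. For that pair control replicates 2 and 4 were the low tanks.

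The largest set had 5 probes with pairwise correlations of 0.897 to 0.996, all highest in exposed replicate 5. Within the exposed arrays the correlations were 0.934 to 0.999, and within the control arrays 0.548 to 0.962. SINGLET_30195 and UF_Ppr_AF_117333 both reached 2.18 there, with the other exposed levels between -1.75 and -0.58 and control levels between -2.59 and -1.68. SINGLET_1415, SINGLET_6034 and SINGLET_2915 reached 1.33, 1.29 and 0.42 in that tank and had their other exposed levels between -0.24 and 0.55. All 5 were well above background on all arrays, so their values in exposed replicate 5 were measured. SINGLET_42780 and UF_Ppr_AF_108048 (0.954) had the same order of exposed tanks, with exposed values of -3.83 to 0.60 and 1.68 to 2.34. The former had stand-ins in exposed replicate 5, its lowest exposed value, and in control replicates 1 and 2.

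**Figure D4:**
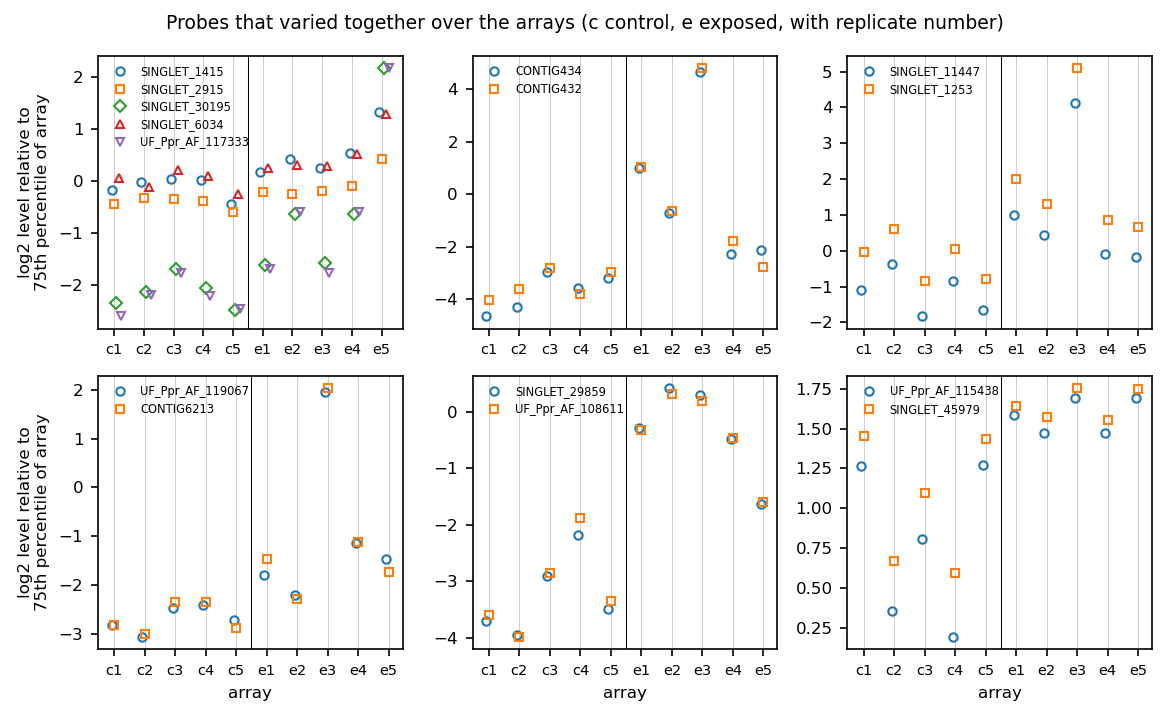
Log2 level relative to the array's 75th percentile (vertical axis) on each control (c) and exposed (e) array, with the replicate number, for 6 of the 10 sets of probes that varied together. CONTIG434 and CONTIG432, SINGLET_11447 and SINGLET_1253, and UF_Ppr_AF_119067 and CONTIG6213 peak in exposed replicate 3, and the set of 5 probes is highest in exposed replicate 5.

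Among the 47 well measured probes, 11 (23.4%) had a probe outside the 141 that followed them at a correlation of at least 0.98, and the share was 28.1% over the other probes measured equally well. The nearest such probe had a positive difference for 31 of the 47. Some probes were the nearest to several of the 47. The share of positive differences over all probes measured equally well was not computed, and their median difference was -0.05. Nothing is read from this count. CONTIG5435, nearest to UF_Ppr_AF_101612 (0.986), differed by 2.70 log2 units, while SINGLET_47487, nearest to SINGLET_27276 (0.982), differed by -0.13.

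By name 81 of the 141 probes were of the SINGLET series (57.4%, beside 50.1% of the 40572), 40 of the UF_Ppr_AF series (28.4%, beside 30.8%), 20 of the CONTIG series (14.2%, beside 18.2%) and none of the UF_Ppr_AM series (0.895% of the 40572). Most, 121, were printed in a single spot. Of the 20 printed in several spots, 6 had every exposed spot above every control spot. The rule had already separated the means over spots, and the share over all probes printed in several spots was not computed. Nothing is read from this count. The median SD between spots of a probe on an array was 0.104 log2 units.

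Which probes lay above all controls depended on the processing. With each array centred on its median 140 probes met the rule and 87 of the 141 (61.7%) were among them, and with quantile normalization the numbers were 124 and 79 (56.0%). Normexp background correction on the spot median signals with an offset of 50 gave 147 and 67 (47.5%). By the authors' deposited table the rule was met by 140 probes, of which 137 were among the 141. Under 8 other settings of scaling, background correction, common floor, source table and outlier spots, 27 of the 141 met the rule each time. Of the 27, 12 were well above background on all 10 arrays. The authors' table removed few of the 141 and keeping the outlier spots removed none, so these settings narrowed the list little. The 27 were chosen after the values were seen. They hold SINGLET_7367, for which a bound alone can be given, and 26 probes with a signal on all control arrays, whose differences were 0.49 to 3.85 log2 units (median 1.66). Of the 27, 25 had a signal on all exposed arrays. SINGLET_45763 and SINGLET_649 carried a stand-in on the array of exposed replicate 5, so their differences are inexact. The 12 were SINGLET_4840, UF_Ppr_AF_108611, SINGLET_37850, SINGLET_3486, UF_Ppr_AF_119067, UF_Ppr_AF_108090, SINGLET_28039, SINGLET_1415, UF_Ppr_AF_117594, SINGLET_30195, UF_Ppr_AF_106500 and SINGLET_27276. UF_Ppr_AF_117594 had levels of -0.93, 1.82, 0.17, 0.07 and 0.07 in exposed and -1.67, -1.28, -1.12, -1.91 and -1.02 in control replicates. UF_Ppr_AF_106500 and SINGLET_27276 varied together at 0.970.

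**Figure D5:**
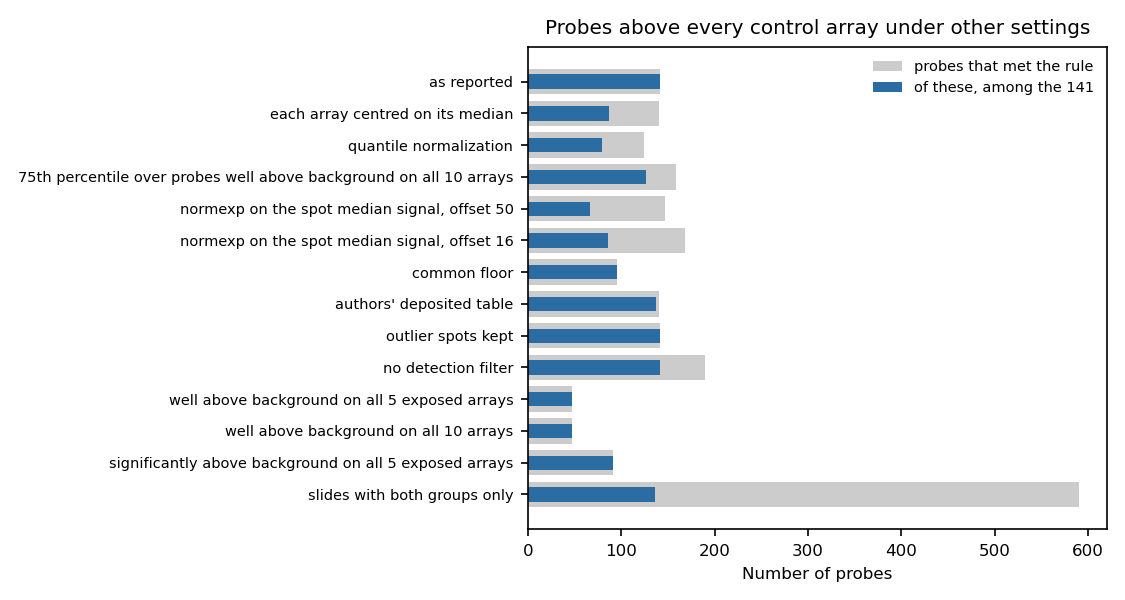
Number of probes (horizontal axis) with all exposed levels above all control levels under each setting (grey) and how many of them are among the 141 (blue). Quantile normalization keeps 79 of the 141 and normexp with an offset of 50 keeps 67.

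Slide was not balanced over the groups. For the 141 probes the median difference was 0.89 log2 units within slide 1, with a single exposed array, and 1.09 within slide 2, beside 1.17 over all arrays. A fit with slide as a block gave 1.06. The rule fixes each within-slide difference of these probes to be positive, so the values cannot test what slide contributed. Over all compared probes the medians were -0.18 within slide 1 and -0.08 within slide 2. Among the probes with a signal on all control arrays, the difference within slide 1 was largest for CONTIG434 (4.98), whose difference within slide 2 was 5.38. Over the 141 probes it was smallest within slide 1 for UF_Ppr_AF_116329 (0.08), whose difference within slide 2 was 0.26. Slide 3 held no control array and gave no value.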

How the data were processed

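Testis RNA (80 ng per replicate, per the labels' protocols) was labelled with Cy3 and read on one-colour Agilent arrays of 61053 gene spots, with 5 control and 5 exposed arrays grouped by their titles. The scanner images were quantified in Agilent Feature Extraction 10.7.3.1, as the submitters' processing notes and the file headers give it. From the deposited files the processed spot intensity, on a linear scale, was taken. The authors also deposited a table of values whose scale, centring and direction are not stated in the sources used here. Set against the scanner values, each of its columns followed log2 level minus the probe's median (Pearson correlation across probes of at least 0.999), so it is taken here as the authors' log2 values with the same direction and no absolute level. Column medians were -0.15, 0.0018, -0.14, 0.076 and 0.18 for exposed and 0.037, 0.037, -0.022, 0.022 and -0.024 for control replicates 1 to 5, over the probes of the scanner files.

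Control spots and outlier spots (131 to 281 per array) were dropped; none of the gene spots was saturated. The log2 of each signal was taken relative to the array's 75th percentile over gene spots, and spots of a probe were averaged. A probe counted as well above background on an array if at least 0.5 of its spots were flagged so, and as carrying a stand-in if under 0.5 of them were significantly above background. A probe printed in several spots could thus count as having a signal while some of its spots held a stand-in. Standard errors are from limma 3.58.1 with R 4.3.3, by lmFit and eBayes on group alone, fitted to the 43080 probes that had the well-above-background flag on 3 or more arrays of the control or the exposed group, with Benjamini-Hochberg adjustment over all of them and a threshold of 0.05. Tables and figures used Python 3.11.15, numpy 2.4.6, pandas 2.3.3, networkx 3.6.1 and matplotlib 3.10.9. The limma step and the selection rule were tested on simulated data.

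The probes were chosen on the comparison of exposed with control, and the probe lists and tests were chosen with earlier results of these data known. No p-value is therefore given for them. Probes were named by 7 rules: the 12 with the widest gap among those well above background on all arrays, the 6 with the widest gap among those well above background on no control array, the 3 just inside and the 3 just outside the threshold, the 3 with the highest control mean, the 2 with the largest and the 2 with the smallest exposed SD, the first 3 sets that varied together, and those called by limma. Sets of equal size were ordered by gap. Other probes named were chosen after their values were seen. The gene lists (testis cell types, blood, liver and toxicant response) could not be used, because no probe could be paired with a gene. The number of arrays limits the precision. The labels call the tanks replicates, so the spread is that between tanks.

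Correlations of the deviations from the group means between same-numbered control and exposed arrays were -0.29 to 0.08. The labels do not say what the replicate numbers share, and the samples were not treated as paired. Such correlations cannot exclude that same-numbered tanks shared a condition. Alternatives were other scalings, background corrections, a common floor, the authors' table, other detection filters, outlier spots kept, slide and replicate number as blocks, and leaving out 1 array at a time. Normexp was planned on the spot mean signal, which the files do not hold, and was run on the spot median signal.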

Additional observations from a re-analysis of the deposited data

Results flagged for a closer look

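Among 74 groups of 5 values checked (levels of the named probes and 3 array quality values), 10 held a value far from the rest of its group. A chance rate of about 1 in 20 does not apply, since the probes were named by their values. Some of the groups also varied together, so the count is a description. In exposed replicate 5 the share of gene spots well above background was 40.3% and the share not significantly above it 35.4%, beside 81.9% or more and 6.11% or less on the other exposed arrays. That array was also high for SINGLET_2915 (0.42, next exposed level -0.10), SINGLET_30195 (2.18, next -0.62) and SINGLET_6034 (1.29, next 0.52), which belong to a single set that varied together and were well above background there. Exposed replicate 3 was far above the rest for UF_Ppr_AF_119067 (1.97, next -1.14) and SINGLET_11447 (4.11, next 1.00). Control replicate 5 was far below the other controls for SINGLET_3486 (0.19, next 0.90), SINGLET_6510 (-7.27, next -5.89) and UF_Ppr_AF_116329 (0.47, next 0.75). The cause was not tested for any of them.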

How the results depend on the processing

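Normexp on the spot median signal and the requirement of a signal on all exposed arrays were chosen after seeing the data; normexp on the spot mean signal was not run. The number of probes above all controls was 141. It was 47 with the flag well above background required on all 5 exposed or on all 10 arrays, 91 with a significant signal required on all 5 exposed arrays, and 591 over slides 1 and 2 alone, where 3 exposed arrays meet 5 controls. With an array left out it ran from 197 to 638, a rise that a rule over fewer arrays gives by construction. It was 638, 332, 226 and 229 without exposed replicate 1, 3, 4 or 5, and 260, 286, 224 and 308 without control replicate 1, 3, 4 or 5. The median difference of the 141 probes stayed between 0.63 and 1.27 log2 units under the alternatives tried, lowest with normexp and an offset of 50, and from 1.13 to 1.27 with an array left out. The limma calls use the contrast that chose the 141 probes, so nothing is read from them or from their number under the alternatives. Limma called 3 probes higher (SINGLET_7367, CONTIG5561 and SINGLET_45763, 0.00696% of 43080) and none lower. It called 1 with median centring and 1 with slide as a fixed block, 0 with quantile normalization (4042 at an unadjusted p under 0.05), 0 with normexp and an offset of 50 (2702), and 0 to 2 with an array left out. The count was 0 without exposed replicate 1 or 5 or control replicate 1, 3, 4 or 5 (2968 to 5219 at an unadjusted p under 0.05), and 1 without exposed replicate 4 or control replicate 2. With the replicate number as a block it was 0 (3436), although the labels do not say what the numbers share. For the named probes, 805 recomputed differences moved by less than the spread between tanks, 46 by more and none changed sign. These probes met or nearly met the rule, so the sign was largely fixed in advance. The cause of the changes under the alternatives was not tested.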
